A study of Petromyzon marinus with 10 samples.

Results

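The very long loci were the transcribed loci whose exons were spread over at least 100 kb of the sea lamprey (Petromyzon marinus) genome. A locus belonged to them when it had at least 2 exon records, when its first and last exon base lay at least 100 kb apart, and when its raw count averaged at least 10 over the 10 libraries. This held for 2567 of the 57134 loci in the deposited table (4.49%). The rule used structure and mean count, not the comparison of treatments. The table held raw fragment counts for brainstems of larvae aged 5 to 7 years, all caught in the river Ulla (Spain) and all given a complete spinal cord transection. In 5 libraries the larvae had received baclofen, an agonist of the metabotropic GABAB receptor, and in 5 they were injured controls. Each library pooled the brainstems of several larvae, so the spread between single animals was not measured, and the p-values refer to the spread between pools. The series' text puts the sampling 29 days after injury. The study's methods give that day for a separate GABA experiment and an earlier day for the baclofen larvae and their controls. No computation here used the day. In pooled tissue, fewer cells of a type and less RNA per cell cannot be told apart.

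Vertebrate genes become this long mainly through introns, the stretches that are transcribed and then spliced out. A very long transcription unit takes a polymerase hours to read, and genes of this kind are well known among those that neurons use for synapses, adhesion and channels. The loci here were assembled from the reads by StringTie, which joins exon blocks wherever spliced reads connect them. The outermost block of a locus can therefore rest on a few reads, and span is a property of the assembly as well as of the gene. No genome or gene sequence of this assembly (Pmar_germline 1.0) was at hand, so the loci are described by position, exon structure and count. The table carries no gene names. Of the very long loci, 8 are paired with a name in the study's lists of genes, and these names are used here. Those lists hold loci that the study called in its baclofen experiment or in its GABA experiment, which used other animals. Of the very long loci 7 are on the baclofen list and 3 on the GABA list. A name therefore goes with a call by the study.

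Spans ran from 100100 to 3467438 bp, with a median of 263177 bp and quartiles of 150050 and 579113 bp. Very little of that length was exon. The medians, each taken separately, were 8 exon blocks, 4298 bp of exon and an exon share of 1.25% of the span. Blocks were counted after overlapping exon records were merged. Shorter multi-exon loci were matched to them one by one on mean count. Their medians were a span of 13451 bp, 6 exon blocks, 3076 bp of exon and an exon share of 24.5%. The very long loci thus had a higher median of exon sequence than loci of equal count. Their greater span follows from the rule on span, and the contrast in exon share is tied to that rule. They were split evenly between strands, with 1293 on plus and 1274 on minus, and lay on 174 of the 6286 scaffolds, up to 73 on one.

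In most of them the length came from a single gap between neighbouring exon blocks. The longest gap took up a median of 75.2% of the span, against 29.6% in the matched loci. It exceeded 50% of the span in 1840 very long loci (71.7%) and in 613 matched loci (23.9%). In 774 of them (30.2%), against 66 matched loci (2.57%), 1 gap made up over 95% of the span. A rule on span also favours loci with a long gap, so these contrasts are not independent of the rule. The longest gaps thinned out steadily, from 784 loci with a gap under 100 kb to 65 with one between 900 kb and 1 Mb, and the largest gap of all was 998537 bp. The study's aligner was set to accept introns of up to 1 Mb, so a longer gap could not be spanned by a spliced read. The 124 loci of 1 Mb or more had a median of 11 exon blocks.

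**Figure D1:**
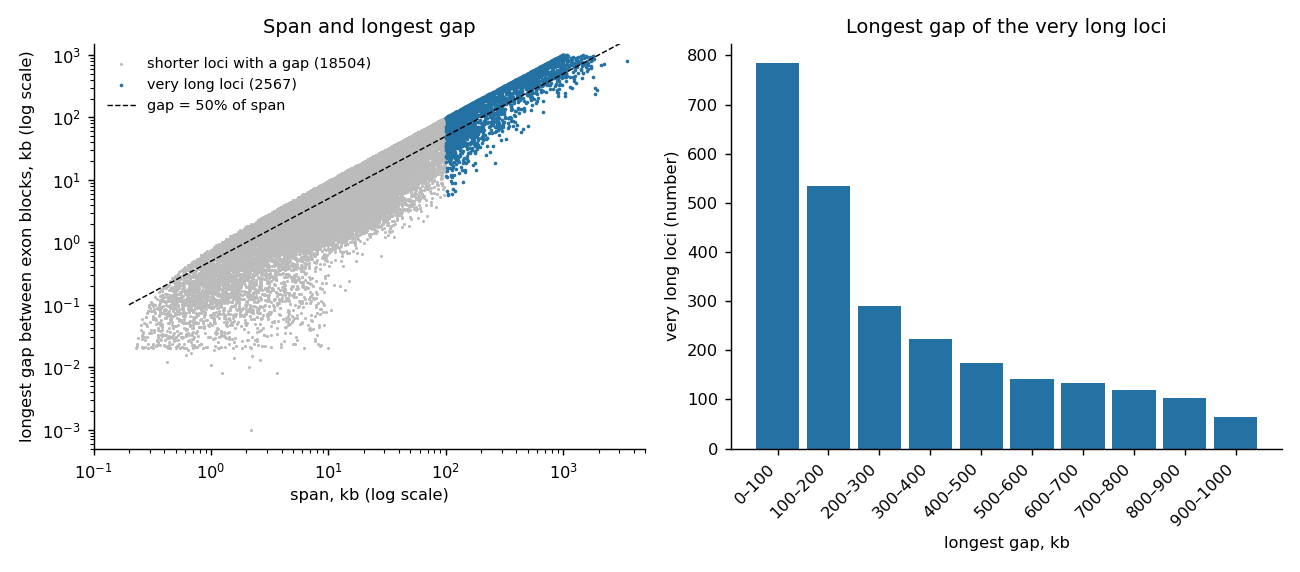
Left, longest gap between exon blocks against span, both in kb on log scales, for the very long loci (blue) and the shorter multi-exon loci that have a gap (grey); the dashed line marks a gap of 50% of the span. Right, number of very long loci in each 100 kb class of the longest gap, falling from 784 in the first class to 65 in the last.

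What lay beyond the longest gap was small. The side with less exon sequence held a median of 217 bp, and 98.5 bp in the 774 loci where the gap exceeded 95% of the span. This smaller side was the 5′ end in 1555 loci and the 3′ end in 1012. In the 727 loci whose longest gap was at most 50% of the span it was the 5′ end in 558 and the 3′ end in 169, whereas in the 774 loci both ends were about equally frequent, with 382 and 392. With the longest gap cut, neither side still spanned 100 kb in 1886 loci (73.5%), and 681 kept a side of at least 100 kb.

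Loci with many exon blocks carried more counts. The 397 with 2 blocks had a median mean count of 25.5, and the 509 with 20 or more blocks one of 1543. Across the 2567 loci Spearman's rho between blocks and mean count was 0.68, whereas between span and mean count it was −0.061. These are descriptions across loci, which are not replicates and which share the same libraries, and a locus with more reads also gives the assembler more splice junctions. The median mean count was 360.4, and 806 loci averaged at least 1000 raw counts. Per kb of exon the very long loci had a median of 76.4 normalised counts, against 87.4 in the matched loci. Their counts were not held by a few loci, the top 10 taking 7.95% and the top 100 taking 32.1% of all counts in very long loci.

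Other loci lay inside these spans. At least 1 other locus was nested within 2361 very long loci (92.0%), against 642 of the matched loci (25.0%). The matching was on count and not on span, and a longer interval has room for more loci. This contrast therefore follows from the rule on span. In all 19344 of the 57134 loci (33.9%) lay inside a very long locus, 945 of them being very long themselves. Of the nested loci 26.5% had a single exon block, and of the loci elsewhere 47.8%. No very long locus shared exon bases with another locus on its own strand. Since the counting used strand, no count of a very long locus was exposed to fragments that another locus could claim through shared exon bases. Of all loci 129 did share exon bases on their strand.

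The structural extremes show how varied the loci were. The longest, MSTRG.30743 (scaffold PIZI01000054.1, 3536669 to 7004107, minus strand), had 21 exon blocks with 8856 bp of exon in 3467438 bp. It held 61 loci on its own strand and 94 on the other, and had a mean raw count of 161.5. Next came MSTRG.32751 with 2211934 bp, MSTRG.33286 with 2080821 bp, and the pair MSTRG.35517 and MSTRG.35519 on scaffold PIZI01000081.1. This pair ran against each other over nearly the same interval, from 3002 to 1930507 on plus and from 23819 to 1885818 on minus. They were unusual in exon content, with 147070 bp in 123 blocks and 96742 bp in 90 blocks. The most exon blocks were found in MSTRG.7275, with 144 in 155593 bp, followed by MSTRG.35517 and by MSTRG.12101 with 95. Exons filled 45.8% of the span of MSTRG.34623 and 0.0213% of that of MSTRG.33053, where 254 bp were spread over 1191972 bp.

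The highest levels per kb of exon were 7796 normalised counts in MSTRG.2329, which had 458 bp of exon in 3 blocks, 7170 in MSTRG.6593, which had 5605 bp in 8 blocks, and 4977 in MSTRG.2926, which had 540 bp in 3 blocks. MSTRG.6593 was among the most counted loci with a mean raw count of 40884, and only 22 bp of its 5605 bp of exon lay beyond its gap of 343018 bp. In none of the 3 did the treatment groups differ past the threshold.

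Just inside the span limit stood MSTRG.1211 with 100100 bp and 22 blocks and MSTRG.15312 with 100110 bp and 3 blocks, and just outside it MSTRG.31141 with 99929 bp and 22 blocks and MSTRG.749 with 99913 bp and 2 blocks. At the count limit MSTRG.13314 and MSTRG.20025 averaged 10 raw counts and were kept, and MSTRG.8389 and MSTRG.34044 averaged 9.9 and were not. A further 1339 multi-exon loci of at least 100 kb averaged under 10 counts.

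The comparison of baclofen with control asked which genes respond when GABAB receptors are activated after the injury. Few of the very long loci were called. The DESeq2 Wald test, run on all loci with Benjamini-Hochberg adjustment and a threshold of 0.05, gave an adjusted p for 2320 of the 2567, and 7 of these passed (0.302%). Of all tested loci 82 of 23794 passed (0.345%), so the share among the very long loci was close to the background, and 11 of the 2325 tested matched loci passed (0.473%). Of the 7, 6 were higher with baclofen and 1 was lower. Over all tested loci 0.269% were called higher and 0.0756% lower. The other 247 very long loci had no adjusted p, 236 because their mean was too low and 11 because single libraries were outlying.

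**Figure D2:**
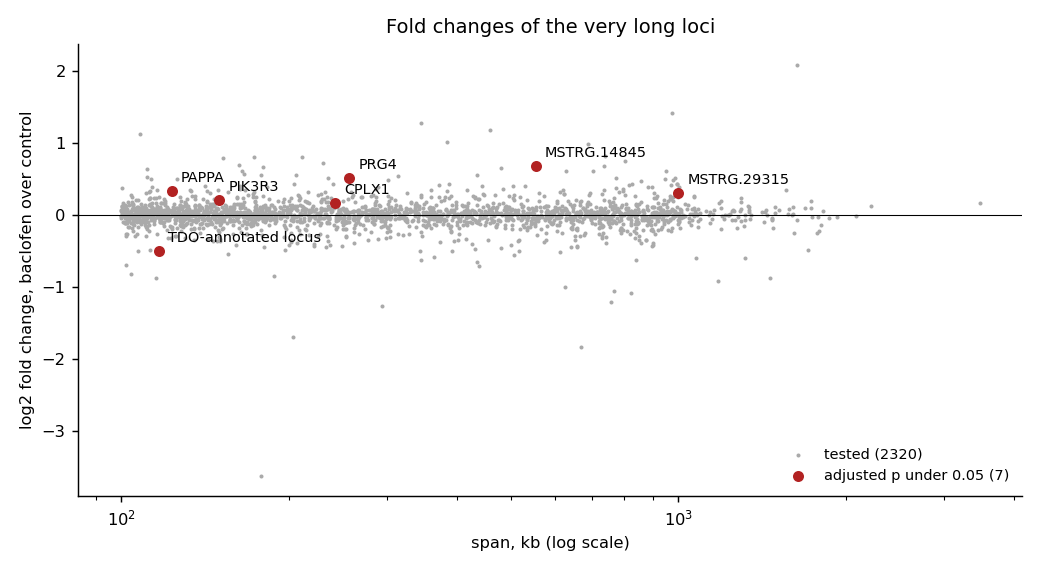
Log2 fold change (baclofen over control) against span in kb on a log scale for the 2320 tested very long loci, with the 7 that passed the threshold in red. The called loci lie at spans from 117091 to 998929 bp and the point cloud is centred near 0 at every span.

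The called loci named for genes that act outside the cell rose with baclofen. PRG4 is annotated as proteoglycan 4-like, after a secreted lubricating proteoglycan known from mammalian joints. Its locus (MSTRG.36248, PIZI01000092.1, 108148 to 365065, plus strand) spanned 256917 bp with 19 exon blocks. With baclofen it had 576, 482, 536, 528 and 562 normalised counts in replicates 1 to 5, in the order used for all loci, and in controls it had 342, 387, 408, 402 and 344. Every baclofen library lay above every control. Means were 536.6 ± 36.0 and 376.5 ± 31.7 (SD over 5 libraries), and the log2 difference was 0.52 ± 0.08 (SE, adjusted p = 8.37e-07 by DESeq2). This was the only very long locus that edgeR's quasi-likelihood test with its count filter also called (adjusted p = 0.0107), and it passed whichever library was left out. Its last 69 bp of exon lay beyond a gap of 176064 bp, and the rest spanned 80784 bp.

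PAPPA encodes pappalysin-1, a metalloproteinase that in mammals cuts IGF-binding proteins and so frees insulin-like growth factor. Its locus (MSTRG.22404, PIZI01000034.1, 6732316 to 6855791, plus strand) had 24 exon blocks over 123475 bp, with no gap longer than 20743 bp. Its normalised counts were 1307, 1128, 1179, 978 and 1267 with baclofen and 991, 953, 852, 882 and 983 in controls. The groups touched, since baclofen replicate 4 lay below control replicates 1 and 5. On the log2 scale the difference was 0.33 ± 0.08 (SE), with an adjusted p of 0.0324 in DESeq2 and of 0.224 in edgeR, and it passed when 1 library was left out in 2 of 10 cases. SULF1 (MSTRG.25114, 183252 bp, 23 blocks), a secreted sulfatase that trims heparan sulfate, stood at 1688, 1923, 2264, 1921 and 2146 with baclofen and 1987, 1886, 2020, 1780 and 1680 in controls. These overlapped widely (0.09 ± 0.08 on the log2 scale, SE, with an adjusted p of 0.998 in DESeq2). Of the 7 matrix and secreted genes listed from the study's names, these 3 were very long, and 2 of the 3 were called higher. The names come from loci that the study called, with baclofen on these samples or with GABA on others. Which of them were called higher is therefore not independent evidence of a direction.

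Among genes of signalling and the synapse, PIK3R3 and CPLX1 rose by small amounts. PIK3R3 is a regulatory subunit of phosphoinositide 3-kinase, which relays signals from growth factor receptors. Its locus (MSTRG.16284, PIZI01000023.1, 5784937 to 5935011, minus strand) had 17 exon blocks over 150074 bp. Normalised counts were 3722, 3607, 4093, 3695 and 3971 with baclofen and 3212, 3434, 3268, 3279 and 3348 in controls, without overlap. On the log2 scale the difference was 0.21 ± 0.05 (SE), with an adjusted p of 0.0147 in DESeq2 and of 0.214 in edgeR. It passed when 1 library was left out in 4 of 10 cases.

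CPLX1, complexin-1, binds the SNARE complex and controls the fusion of synaptic vesicles. Its locus (MSTRG.11302, PIZI01000015.1, 1953564 to 2195483, minus strand) had 10 exon blocks over 241919 bp. It was one of the higher loci, with normalised counts of 16011, 14419, 15543, 15351 and 15443 with baclofen and 13930, 14254, 13640, 13201 and 13444 in controls. The groups did not overlap, though baclofen replicate 2 and control replicate 2 were close. On the log2 scale the difference was 0.17 ± 0.04 (SE), with an adjusted p of 0.0397 in DESeq2 and of 0.512 in edgeR, and it passed when 1 library was left out in 3 of 10 cases. CPLX1 was 1 of 7 synapse and membrane traffic genes listed and the only very long one. SLC4A4 (MSTRG.9567, 104535 bp, 28 blocks), a sodium bicarbonate cotransporter of glia and epithelia, ranged from 3511 to 5599 with baclofen and from 3794 to 5976 in controls, with no separation (−0.18 ± 0.17 on the log2 scale, SE, with an adjusted p of 0.998 in DESeq2). PIK3R3 and SLC4A4 were the 2 very long ones of 14 receptor, transporter and signalling names.

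The only very long locus called lower with baclofen was annotated as tryptophan 2,3-dioxygenase. This enzyme opens the tryptophan ring in the first step of the kynurenine pathway. The locus (MSTRG.17829, PIZI01000026.1, 1591045 to 1708136, plus strand) had 14 blocks over 117091 bp and no gap over 19102 bp. Normalised counts were 681, 526, 675, 570 and 525 with baclofen and 726, 935, 989, 737 and 835 in controls. All baclofen libraries lay below all controls, the nearest being baclofen replicate 1 and control replicate 1. Means were 595.3 ± 77.6 and 844.4 ± 116.8 (SD over 5 libraries), and the log2 difference was −0.50 ± 0.11 (SE, adjusted p = 0.00215 by DESeq2). The fall passed whichever of the 10 libraries was left out, and missed the threshold in edgeR (adjusted p = 0.0948).

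Both unnamed loci that were called were long through gaps. MSTRG.14845 (PIZI01000020.1, 13523508 to 14077511, minus strand) had 3 blocks in 554003 bp, and 1 gap took up 98.5% of the span with 22 bp of exon beyond it. Its normalised counts were 551, 492, 702, 575 and 521 with baclofen and 256, 443, 427, 308 and 349 in controls, without overlap. On the log2 scale the difference was 0.68 ± 0.14 (SE), with an adjusted p of 0.00123 in DESeq2 and of 0.0948 in edgeR, and it passed whichever of the 10 libraries was left out. MSTRG.29315 (PIZI01000050.1, 6559585 to 7558514, plus strand) had 6 blocks in 998929 bp and counted 660, 770, 771, 762 and 781 with baclofen against 697, 573, 594, 589 and 560 in controls. Replicate 1 of each group stood apart, on the side of the other group, so the groups overlapped. On the log2 scale the difference was 0.31 ± 0.08 (SE), with an adjusted p of 0.0275 in DESeq2 and of 0.241 in edgeR, and it passed when 1 library was left out in 2 of 10 cases.

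**Figure D3:**
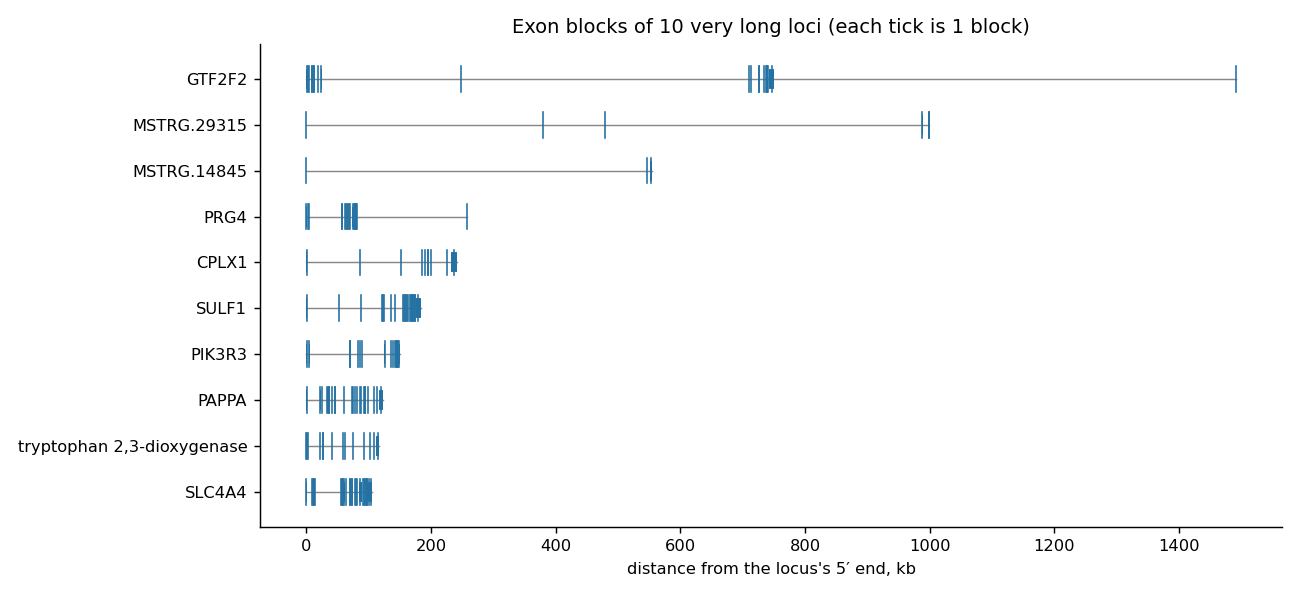
Exon blocks (ticks) of the 8 named very long loci and the 2 unnamed ones that were called, in kb from the 5′ end of each locus, ordered by span. PAPPA and the tryptophan 2,3-dioxygenase locus have no gap over 16.8% of the span, PRG4 and GTF2F2 end in a single distant block, and MSTRG.14845 begins with one.

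**Figure D4:**
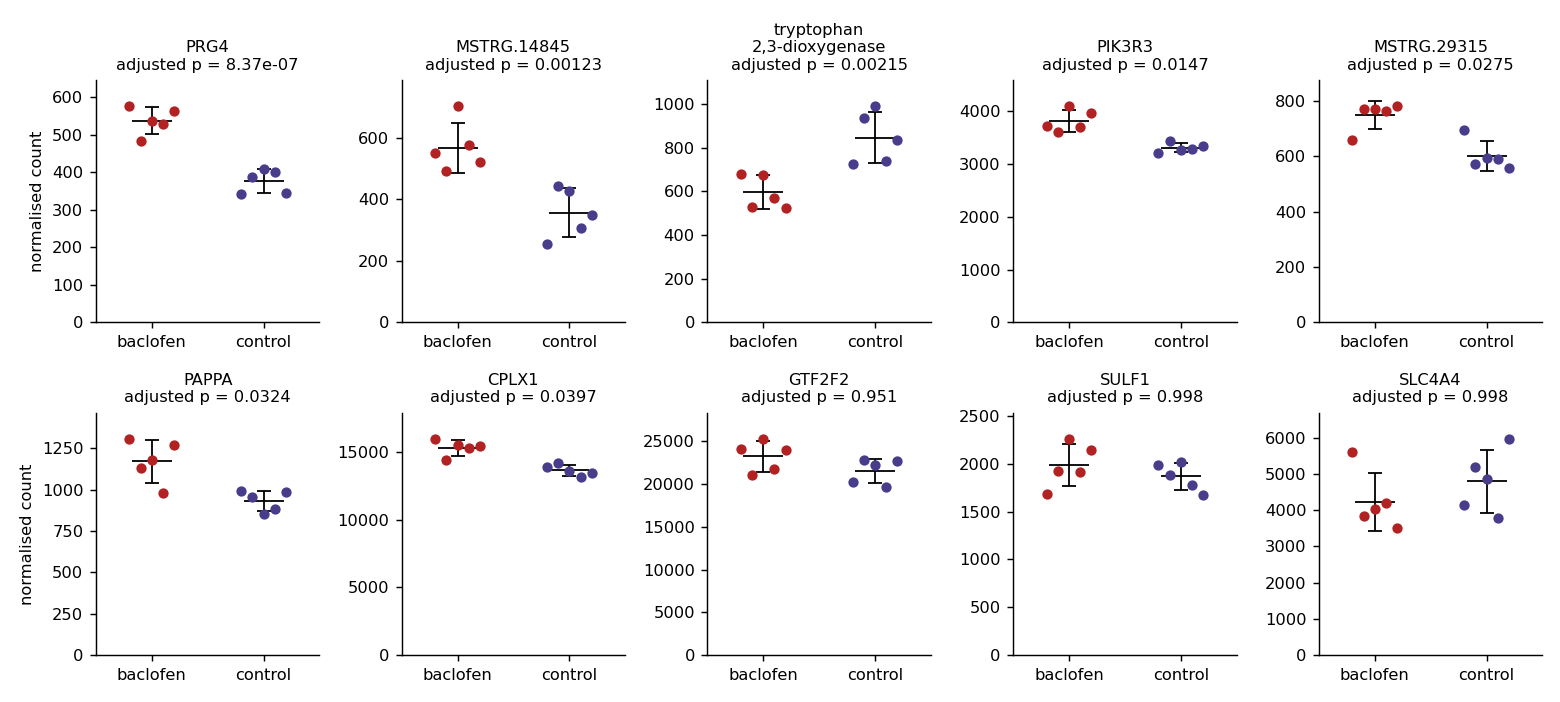
Normalised counts of the same 10 loci in the 5 baclofen (red) and 5 control (dark blue) libraries, with mean and SD as black bars and each axis starting at 0; adjusted p-values are from DESeq2. PRG4, MSTRG.14845, tryptophan 2,3-dioxygenase, PIK3R3 and CPLX1 show no overlap between the groups.

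GTF2F2, a subunit of the general transcription factor TFIIF, was the longest named locus, with 1491371 bp on scaffold PIZI01000061.1 and 21 blocks. Its normalised counts were 24118, 21018, 25306, 21806 and 23960 with baclofen and 20259, 22765, 22205, 19703 and 22679 in controls, which overlapped (0.11 ± 0.07 on the log2 scale, SE, with an adjusted p of 0.951 in DESeq2). Its last 111 bp of exon lay 741057 bp from the next block. The rest lay in a cluster within 24.5 kb of the 5′ end and another from 710.4 to 750.2 kb. Between these clusters stood only a short block at 247.3 kb. Whether the clusters belong to the same gene was not tested. It was the only very long one of 10 transcription genes listed.

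Markers of cell types were available only through the study's lists and were mostly chosen there on these samples. How many passed therefore follows largely from that choice and is no evidence of a change in cell types. Over all tested loci 0.345% passed. None was at 0 in any library. Of 4 neuron markers 2 passed the threshold, both higher with baclofen (CPLX1, and MAP6 by 0.76 on the log2 scale). GABRA5 and CARTPT were lower and did not pass (−0.13 and −0.09). The summed level of the 4 was 17553 to 19723 normalised counts with baclofen and 16496 to 18413 in controls. Most of that sum was CPLX1, which averaged 14524 normalised counts, against 46.1 for MAP6. Of 3 blood cell markers all passed, PTPRC higher by 0.56 and VLRA and CD62L lower (−0.58 and −1.24), with a summed level of 720.6 to 945.4 with baclofen and 880.8 to 1119 in controls. Of 2 markers of glia and mesenchyme SoxE1 passed, higher by 0.48, and VIM did not (0.02). Their summed level was 10928 to 12451 with baclofen and 10573 to 11826 in controls. The summed levels overlapped in each of the 3 lists. CPLX1 was the only very long locus among these markers, and their part in the calls of the very long loci was not tested.

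The calls were spread over the kinds of structure. Over all tested loci 0.345% passed. Of the loci whose longest gap was at most 50% of the span, 4 of 718 tested passed (0.557%). With a gap of over 50% to 95% it was 2 of 973 (0.206%), and with a gap over 95% 1 of 629 (0.159%). None of the 292 tested loci with 2 blocks passed, a class too small to be told apart from the share over all loci. Of the 646 tested loci that keep at least 100 kb on one side of the longest gap, 3 passed (0.464%). These differences between classes rest on 7 loci and were not tested.

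The fold changes of the very long loci were centred near 0. Their median log2 fold change was 0.012, against −0.012 in the matched loci and −0.005 over all tested loci. Of the very long loci 1289 were above 0 and 1031 below, of the matched loci 1055 and 1270, and of all tested loci 11482 and 12312. Among multi-exon loci averaging 50 or more normalised counts, the median was 0.015 both at 50 to 100 kb and at 100 to 200 kb. The lean above 0 was thus not particular to loci past 100 kb. Of the 2320 tested, 90% lay between −0.26 and 0.27. The groups did not overlap in 30 (1.29%), 21 of them higher and 9 lower with baclofen, where over all tested loci 0.765% were higher and 0.483% lower. An unadjusted p under 0.05 was found for 150 (6.47%), against 5.8% of all tested loci and 6.45% of matched ones.

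The share of each library's counts in very long loci was 17.5%, 17.6%, 17.3%, 18.0% and 17.7% in the baclofen libraries, in the order of replicates, and 18.2%, 16.9%, 16.7%, 17.0% and 17.3% in controls. The mean was 17.6 ± 0.241% against 17.2 ± 0.601% (SD, n = 5 each), a difference of 0.403 percentage points. Control replicate 1 had the highest share of all, but a share also depends on the counts of the other loci. In that library the median log2 deviation from the mean over the 10 libraries was −0.008 in very long loci and −0.067 in matched loci. Without that library the difference was 0.656 percentage points and the highest control (17.26%) lay just under the lowest baclofen library (17.29%). The share is a sum over the very long loci and was not tested. With each library's joint trend on span and mean count taken out, the difference was 0.0399 percentage points. That trend was fitted to these same data, so taking it out shrinks a difference tied to span by construction.

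The medians of the libraries lay close together in the very long loci and in the next shorter class, and further apart in loci of 5 to 50 kb. These differences were not tested. Among loci averaging 50 or more normalised counts, the median log2 deviation of a library from the mean over all 10 ranged over 0.056 at 100 to 200 kb, 0.042 at 200 to 500 kb and 0.042 at 500 kb or more. It ranged over 0.055 at 50 to 100 kb, 0.092 at 20 to 50 kb, 0.148 at 10 to 20 kb and 0.066 under 5 kb. At 5 to 10 kb it ranged over 0.170, from −0.112 in control replicate 1 to 0.058 in control replicate 2. Control replicate 1 was thus the library that stood apart, and it did so in the loci between 5 and 50 kb. At 50 to 100 kb its median was still the lowest (−0.036), but close to those of other libraries. From 100 kb upward another control was lower. Total counts ranged from 12774386 to 19566056, and 2553 of the 2567 loci had counts in every library.

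**Figure D5:**
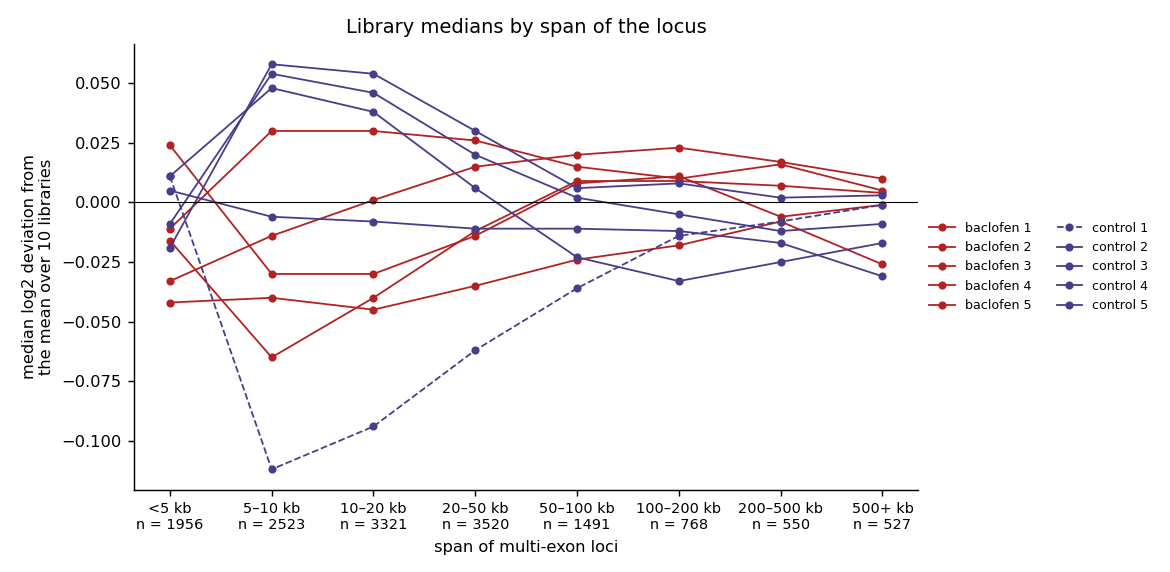
Median log2 deviation of each library from the mean over the 10 libraries, by span of the multi-exon loci (n is the number of loci averaging 50 or more normalised counts). The lines fan out at 5 to 20 kb, with control 1 (dashed) lowest at −0.112, and draw together from 50 kb upward, where the medians of a class span at most 0.056.

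Spread was also set side by side within ranges of mean normalised count, not locus by locus. The pooled SD of log2 counts within a group had a median of 0.084 in the 794 very long loci and 0.096 in the 3075 shorter loci with a mean normalised count of 1000 or more. At a mean normalised count of 10 to 20 it was 0.559 and 0.512. The steadiest very long loci with a mean of at least 100 included MSTRG.26570, with 3775, 3890, 3750, 3789 and 3760 normalised counts with baclofen and 3589, 3547, 3630, 3617 and 3584 in controls. Its groups did not overlap, at a log2 difference of 0.08 ± 0.04 (SE, adjusted p = 0.786 by DESeq2). MSTRG.17041 counted 752 to 778 with baclofen and 829 to 878 in controls, also without overlap (−0.16 ± 0.05 on the log2 scale, SE, with an adjusted p of 0.30 in DESeq2). MSTRG.12537 had a within-group SD of 0.027 and overlapping groups.

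A few very long loci were high in only 1 or some of the libraries. MSTRG.10642 counted 7650.5 in control replicate 2 and 480.9 in baclofen replicate 4, and 8.3 or less in the other 8 libraries. MSTRG.33033 counted 964.5 in baclofen replicate 2 and 62.1 to 220.1 elsewhere. With all libraries DESeq2 gave no p to either. The log2 fold change of MSTRG.33033 was 0.79 with all libraries. Without baclofen replicate 2 it reversed to −0.95, and the locus passed the threshold (DESeq2 adjusted p = 0.0111). MSTRG.35594 fell apart into high and low libraries in both groups, with 6.7, 32.1, 387.6, 28.7 and 23.1 with baclofen and 148.5, 435.8, 339.2, 16.6 and 159.2 in controls. Baclofen replicate 2 was over 2 times as high as every other library in 6 of the 1845 very long loci with a mean of at least 50 (0.325%) and in 9 of 12811 shorter ones (0.0703%). Control replicate 3 was the second highest in all 6 and in 7 of the 9. In the matched loci baclofen replicate 2 stood out so in 1 of 1844 (0.0542%). Control replicate 2 stood out in this way in 2 of the 1845 very long loci (0.108%). Among the shorter ones it did so in 18 of 12811 (0.141%). Baclofen replicate 4 was then the second highest in both of the 2 and in 17 of the 18.

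Among very long loci averaging 50 or more normalised counts that had an adjusted p and were not called, the largest fold changes came with overlapping groups. MSTRG.2038 had a log2 fold change of 0.80, with 224 to 288 normalised counts with baclofen and 81, 297, 188, 98 and 98 in controls, where control replicate 2 exceeded every baclofen library. MSTRG.20233 had one of 0.79 and ranged from 44.5 to 172.6 and from 8.7 to 148.9. At the other end MSTRG.36166 had one of −1.26, with 7.9 to 76.3 normalised counts with baclofen and 27.2 to 178.3 in controls, and MSTRG.35594 one of −1.20. The groups overlapped in all 4, and single libraries moved each value. Without control replicate 2 MSTRG.2038 had a log2 fold change of 1.21 and passed the threshold (DESeq2 adjusted p = 3.98e-07), and without baclofen replicate 3 MSTRG.35594 had one of −3.27 and passed (DESeq2 adjusted p = 0.0257). The values ranged from 0.51 (without control replicate 5) to 1.31 (without control replicate 3) for MSTRG.20233, and from −1.94 (without baclofen replicate 4) to −0.63 (without control replicate 2) for MSTRG.36166, with no call.

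The number of calls turned on the test and on single libraries. With edgeR and its count filter 1 of 2525 very long loci passed, where 0.0918% of all loci did. Without control replicate 1 DESeq2 called 38 of 1614 very long loci (2.35%), 21 higher and 17 lower and all 7 among them, and 3.33% of all tested loci. MSTRG.32751, second in span, was among the 38 (DESeq2 adjusted p = 0.0144). Without control replicate 4 it called 3, and without baclofen replicate 4 or baclofen replicate 5 it called 4. The share of all loci called in these last fits is not given. Their counts therefore do not show whether the very long loci differed from the rest.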

How the data were processed

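Stranded poly(A) libraries of 10 pooled brainstem samples were sequenced as paired-end reads. The authors aligned reads to Pmar_germline 1.0 with STAR in 2-pass mode (introns up to 1 Mb), assembled loci with StringTie and counted fragments per locus and strand with featureCounts. Versions are not given in the sources used here. The deposited values are raw counts, not normalised, with the exon coordinates of each locus. The exon lists of 2 loci, both very long, were broken over a pair of lines and were rejoined. Exon records were merged into blocks, and span was the last exon base minus the first.

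All 57134 loci were fitted with DESeq2 version 1.42.0 (R version 4.3.3; treatment only, median-of-ratios size factors, Wald test, default Cook's cutoff and independent filtering, which left out means under 14.35). Fold changes are unshrunken. Each very long locus was matched to 1 shorter multi-exon locus nearest in mean raw count. Log2 deviations used an offset of 0.5. Precision follows from total counts of 12774386 to 19566056, and p-values cover the spread between pools.

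Alternatives were edgeR version 4.0.16 (quasi-likelihood, with and without filterByExpr), TMM or total-count scaling, a minimum of 10 counts in 5 or more libraries, leaving off independent filtering or Cook's cutoff, a replicate block, removal of each library's joint loess trend on span and mean count, other limits of span (50 or 200 kb), count (50) or gap, other matching, and leaving out each library. Fits were also run on simulated counts, drawn without any trend of a library on span. Their outcome is not given, so they bear on no result here. The rule for very long loci, the gene lists and the alternatives were chosen with earlier results of these data known. Named were loci with a name in the study's lists, the unnamed called ones (at most 2 in a direction), the extremes of span, blocks, level and exon share, the neighbours of the limits, the extreme fold changes not called, and the extremes of spread. Names were taken from those lists and no value of theirs was used. RefSeq's table of another assembly was not used.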

Additional observations from a re-analysis of the deposited data

Results flagged for a closer look

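Of 44 groups of 5 libraries examined, 9 held a library far from the other 4, where chance flags about 1 in 20 groups not chosen by their values. Of the 9, 6 were in loci named for an extreme fold change or spread, to which that rate does not apply. The very long loci with 1 gap over 95% of the span took 2.13% of the counts in control replicate 1 and 2.03 to 2.05% in the other controls. MSTRG.29315, a called locus, stood at 659.9 normalised counts in baclofen replicate 1, below the other baclofen libraries (762.5 to 781.0), and at 696.6 in control replicate 1, above the other controls (559.7 to 594.2). MSTRG.26570 reached 3890.3 in baclofen replicate 2 against 3750.0 to 3789.3 in the rest of its group. MSTRG.10642 reached 480.9 in baclofen replicate 4 against at most 4.5, and 7650.5 in control replicate 2 against at most 8.3. MSTRG.33033 reached 964.5 in baclofen replicate 2 against 62.1 to 92.7, MSTRG.35594 387.6 in baclofen replicate 3 against 6.7 to 32.1, and MSTRG.36166 178.3 in control replicate 2 against 27.2 to 64.2.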

How the results depend on the processing

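The 7 calls, 6 higher and 1 lower, became 1, 1 and 0 with edgeR and its count filter and 2, 2 and 0 without that filter. Without independent filtering 4 very long loci passed, 3 of them higher. With the replicate number as a block 5 passed, 3 higher and 2 lower. No baclofen library correlated best with the control of its own number (correlations of −0.167 to 0.0356). The numbers thus gave no sign of a pairing, though low correlations cannot show that there was none. With the joint trend removed 2 were lower. At a span limit of 50 kb 14 passed, 12 higher and 2 lower, and at 200 kb 4 passed and 0 were lower. With the longest gap at most 50% of the span 4 passed, 3 higher. With at least 100 kb on one side of the longest gap, an alternative chosen after seeing the data, 3 passed, 3 higher and 0 lower. These 4 settings of structure change by construction which loci are counted. They reuse the full DESeq2 fit, in which 0.345% of all tested loci passed. For the other settings the cause was not tested. Apart from edgeR with its count filter, their shares over all loci are not given. Those counts therefore do not show whether the very long loci differed from the rest. The median log2 fold change of 0.012 was 0.031 with total counts as size factors and −0.0005 with the joint trend removed. Removing the trend, which was fitted to these same data, brings such a median towards 0 by construction.

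Over the fits that left out 1 library, the number of calls ranged from 3 to 38, higher calls from 2 to 21 and lower calls from 1 to 17. The 38 came without control replicate 1, where 2.35% of tested very long loci and 3.33% of all tested loci passed. For the other libraries left out, the share over all loci is not given. The range therefore does not show whether the very long loci differed from the rest. Over the same fits the median log2 fold change ranged from 0.0068 to 0.0178 and its difference from matched loci from 0.0164 to 0.0423. The difference in share of counts ranged from 0.277 to 0.656 percentage points. These fits share most of their libraries, so such ranges do not measure the spread between pools. The SD of single libraries within a group was 0.0123 for the median, 0.0346 for its difference from matched loci and 0.458 percentage points for the share. The difference of medians, 0.024 in the full comparison, was 0.0015 with the joint trend removed, which takes out differences tied to span by construction. Loci named in the study's lists, unnamed called loci and extreme fold changes without a call made up 14 loci. None of the 14 changed the sign of its fold change in the fits run. MSTRG.33033 and MSTRG.10642, named for their spread, did change sign when 1 library was left out. Their log2 fold changes then ranged from −0.95 to 1.04 and from −10.43 to 5.03. PRG4 passed in all 9 settings other than leaving out a library, MSTRG.14845 in 8, the tryptophan 2,3-dioxygenase locus in 7, PIK3R3 in 6, and CPLX1, PAPPA and MSTRG.29315 in 5. Depth limits the 406 very long loci with a mean under 20, and 236 were too low for an adjusted p.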
